A study of Mus with 5 samples.

Results

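The binding sites of RARα were compared with those of BATF in mouse CD8 T cells kept without retinoic acid (RA). All peaks of the RARα control list and of the BATF control list that lie on chromosomes 1 to 19, X and Y were taken, which gave 1160 RARα peaks and 15810 BATF peaks. These 16970 peaks were drawn from 27429 such peaks in the 4 lists of the series, which also holds both factors after RA. A peak here is a stretch of the genome in which the antibody recovered more fragments than rabbit IgG did. A RARα peak and a BATF peak were called overlapping when they shared at least 1 bp.

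Both lists came from wild-type (WT) CD8 T cells of the spleen. Activation through CD3 and CD28 antibodies with IL-2 lasted 24 h. A rest of 24 h followed in IL-2 at 100 U/ml, and the cells were held for another 1 h without RA. The labels call them naive CD8 T cells although they had been activated, and their treatment field names IL-7 for the RARα sample and IL-9 for the BATF sample where the protocol names IL-2. Each list was called on 2 ChIP files pooled, and whether these were separate cultures is not given in the sources used here. With 1 list per factor there is no replicate spread and no test between the factors. Ranges in brackets after a share are its Wilson 95% interval, and they account for counting error alone.

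RARα is a nuclear receptor that sits on DNA as a dimer with RXR and changes its cofactors when RA binds it. BATF is a small basic leucine zipper protein of the AP-1 family. It pairs with JUN proteins, binds AP-1 sites and composite sites with IRF4 or IRF8, and is needed for the effector program of activated CD8 T cells.

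The depth of the pools was close, with 22655611 fragments for RARα and 23110180 for BATF, and the same IgG library of 11410673 fragments was the background for both. Whether the cells of that library had been given RA is not given in the sources used here. The thresholds were not the same, since RARα peaks were called at a p-value of 0.001 and BATF peaks at 1e-05. The RARα peaks were weaker and narrower. Their median fold enrichment over IgG was 3.09 (quartiles 2.83 and 3.86) with a median of 13 fragments at the summit and a median length of 318 bp. The BATF peaks had a median fold of 5.40 (quartiles 4.28 and 7.39), a summit pileup (the scaled number of fragments there) of 30.6 and a length of 609 bp. The lists hold sites and not expression, so cell identity can be given only as peaks at marker genes. Cd8b1 and Cd8a, which encode the CD8 coreceptor, had 20 and 16 BATF peaks assigned, while Trac, of the T cell receptor, had 0 peaks of either factor. Over the whole marker lists BATF peaks were assigned to 13 of 14 T cell genes and 8 of 12 B cell and myeloid genes, and RARα peaks to 7 and 3, so peaks at these genes do not by themselves identify the cells.

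RARα peaks lay on a BATF peak in 54.0% of cases, and BATF peaks on a RARα peak in 3.92%, in lists of very unequal length. Of the 1160 RARα peaks, 626 overlapped a BATF peak (54.0%, 51.1 to 56.8). Of the 15810 BATF peaks, 620 overlapped a RARα peak (3.92%, 3.63 to 4.24). With the BATF list cut to the 1160 peaks of smallest p-value, the shares were 9.14% and 8.71%, close to each other and far from those of the full lists. Summits within 100 bp of each other were found for 25.4% of RARα peaks and 1.87% of BATF peaks, a setting chosen after seeing the data. The overlaps were nearly all of 1 peak with 1 peak, as only 3 RARα peaks touched 2 or more BATF peaks and only 8 BATF peaks touched 2 or more RARα peaks. Just inside the threshold of 1 bp, a RARα peak at the Stat4 promoter shared 6 bp with its BATF peak and one at Zfp219 shared 11 bp. Just outside it, RARα peaks on chromosome 9 and at Pvt1 ended 6 bp and 13 bp from a BATF peak.

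The factors differed in where in the genome they were found. BATF peaks were mostly at promoters and RARα peaks mostly away from them. By the authors' annotation 9287 BATF peaks were promoter peaks (58.7%, 58.0 to 59.5) against 229 RARα peaks (19.7%, 17.6 to 22.1). Intergenic peaks made up 43.4% of the RARα list (40.6 to 46.3) and 18.1% of the BATF list (17.5 to 18.7), and intron peaks 34.2% (31.5 to 37.0) and 20.1% (19.5 to 20.8). Exon peaks were few in both lists, at 2.59% for RARα and 3.04% for BATF. A second, narrower annotation column, which marks the transcription start site itself, gave lower shares in the same order, with 8.62% of RARα peaks (7.14 to 10.4) and 27.2% of BATF peaks (26.5 to 27.9). When the BATF list was cut to its 1160 peaks of smallest p-value, so that it was as long as the RARα list, 51.2% were still promoter peaks.

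The overlapping sites were intermediate in promoter share, and they departed from their own list in opposite directions. The overlapping peaks of both lists mark largely the same sites, with the same class in 604 of 626 pairs (96.5%). Their promoter shares are thus near each other by construction, and the opposite directions are not separate results. Among overlapping RARα peaks the promoter share was 28.9% (25.5 to 32.6), against 8.99% (6.85 to 11.7) among RARα peaks with no BATF peak. Among overlapping BATF peaks it was 30.8% (27.3 to 34.5), against 59.9% (59.1 to 60.7) among BATF peaks with no RARα peak. A RARα peak at a promoter therefore had a BATF peak in 181 of 229 cases (79.0%, 73.3 to 83.8), compared with 50.9% in introns (46.0 to 55.8) and 45.8% between genes (41.5 to 50.2). For BATF the order was the other way round. A RARα peak was found at 2.06% of BATF promoter peaks (1.79 to 2.37), at 5.88% of its intron peaks (5.11 to 6.75) and at 7.83% of its intergenic peaks (6.90 to 8.87).

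**Figure D1:**
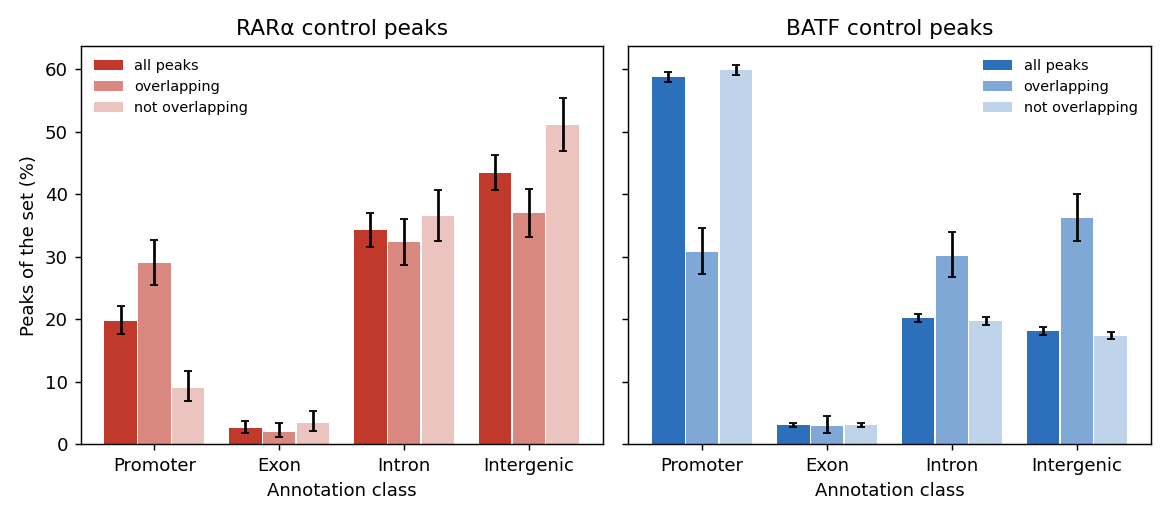
Share of peaks (%) in each annotation class for the RARα control list (left) and the BATF control list (right), for all peaks, peaks that overlap a peak of the other factor and peaks that do not; bars start at 0 and error lines are Wilson 95% confidence intervals. The promoter share is 58.7% for all BATF peaks and 19.7% for all RARα peaks, and close to 30% for the overlapping peaks of either list (28.9% and 30.8%).

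The RARα peaks without a BATF peak also differed in the repeats named for them. Each peak has 1 label in the detailed annotation, so a peak labelled as promoter or CpG island is not counted as a repeat. The promoter share also differed, at 8.99% without and 28.9% with a BATF peak. Shares of repeats and CpG islands were not computed within class, so the part of class in these differences was not tested. Of these 534 peaks, 76 were annotated to a LINE element, a class of retrotransposon (14.2%, 11.5 to 17.5), against 11 of 626 overlapping RARα peaks (1.76%, 0.984 to 3.12) and 1.54% of BATF peaks. These 76 peaks were weak, with a median fold of 2.89, a median of 11 fragments and a median −log10 p of 4.16. All 534 RARα peaks without BATF were nearly as weak, with medians of 3.09, 11 fragments and 4.31. LTR elements were named for 8.80% of the RARα peaks without BATF and 4.31% of those with it, and SINE elements for 7.12% and 4.79%, with intervals that overlap for SINE. CpG islands, which mark many promoters, showed the reverse, with 30 of the 626 overlapping RARα peaks and 1 of the other 534. Among BATF peaks 7.91% were annotated to a CpG island. With LINE, SINE and LTR peaks left out of both lists, a setting chosen after seeing the data, the promoter share was 23.1% for RARα and 62.0% for BATF.

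Most RARα peaks without overlap were also far from BATF. The nearest BATF peak lay a median of 64785.5 bp away (quartiles 9001.5 and 353257 bp). Of the 534 peaks, 100 had a BATF peak within 5 kb, and 108 had none within 500 kb.

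RARα peaks that were stronger overlapped BATF more often, up to a point. The share was 34.1% (29.1 to 39.5) for RARα peaks with −log10 p from 3 to 4 and 46.6% (41.3 to 51.9) from 4 to 5. It then stood at 69.0% (62.3 to 75.0) from 5 to 7, 70.5% from 7 to 10, 74.8% from 10 to 20 and 74.0% (60.4 to 84.1) from 20 upward. The last 4 shares lie within one another's intervals, so above the p-value of 1e-05 no further gain was detectable with these counts. Of the overlapping RARα peaks 57.8% reached that p-value (53.9 to 61.6), against 27.5% of the others (23.9 to 31.5).

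The local IgG level moved with the overlap as well. The fold in the lists is the pileup plus 1 over the IgG level plus 1, so the IgG level at each summit can be had back from it. Among the 433 RARα peaks at which IgG was at its genome-wide level of 2.88, 131 overlapped a BATF peak (30.3%, 26.1 to 34.7), whereas 495 of the 727 with a raised IgG level did (68.1%, 64.6 to 71.4). The median IgG level was 3.97 at overlapping RARα peaks and 2.88 at the others. The part of the IgG level in the overlap was not tested.

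Strong BATF sites had a RARα peak more often than weak ones, but most had none. BATF peaks were split into 10 equal bins (deciles) by fold. From the lowest to the highest decile, the share with a RARα peak went from 1.33% (0.870 to 2.02) to 9.11% (7.79 to 10.6). Stronger BATF peaks were also longer, with a median of 448 bp in the lowest decile and 985 bp in the highest, and the part of length in this order was not tested. Counted by summits within 100 bp of each other, the share went from 0.759% (0.435 to 1.32) to 4.55% (3.63 to 5.70). The same order was seen within each of the larger classes. In the highest and lowest decile it was 5.27% and 0.324% at promoters, 12.0% and 0.722% in introns, and 16.6% and 4.62% between genes.

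**Figure D2:**
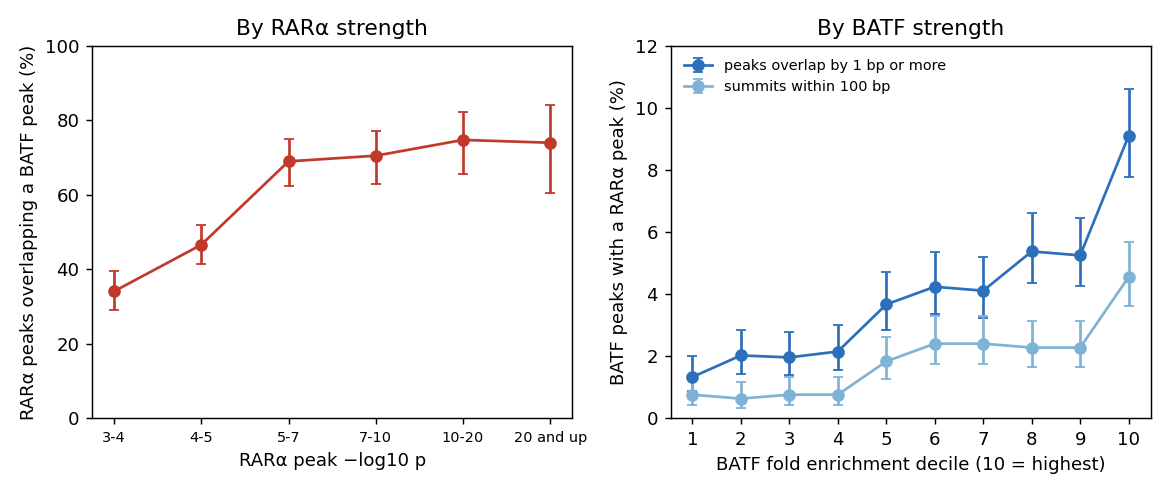
Left, share of RARα control peaks (%) that overlap a BATF peak, by the −log10 p of the RARα peak; right, share of BATF control peaks (%) with a RARα peak, by decile of BATF fold enrichment, for peaks that overlap and for summits within 100 bp. Points are shares and lines their Wilson 95% confidence intervals; the left share is 34.1% in the weakest bin and 69.0% or more from −log10 p of 5 upward, and the right one reaches 9.11% in the highest decile.

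At overlapping sites the summits of the factors, the bases with the most fragments, were close. Each of the 626 overlapping RARα peaks was paired with the overlapping BATF peak of nearest summit. The median distance was 110.5 bp (quartiles 41 and 263.25), which is less than the median length of either peak. The summits were within 25 bp in 17.9% of pairs, within 100 bp in 47.1% (43.2 to 51.0) and within 500 bp in 88.2%. In 7 pairs they fell on the same base, and in 26 they were more than 1000 bp apart, up to 4776 bp. The RARα summit lay inside the BATF peak in 93.5% of pairs, the BATF summit lay inside the RARα peak in 67.3%, and the whole RARα peak was inside the BATF peak in 58.3%.

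The distance differed by class and by strength. The median was 163 bp in 181 promoter pairs, 119 bp in 202 intron pairs and 87 bp in 231 intergenic pairs. BATF peaks at these promoters were long, with a median of 1167 bp against 689 bp between genes, and the part of peak length in the distance was not tested. Among BATF peaks under 500 bp the median was 76 bp in 19 promoter pairs and 41 bp in 69 intergenic pairs. With BATF peaks of 1000 bp or more it was 265 bp in 105 promoter pairs and 229 bp in 53 intergenic pairs, with the promoter median above the intergenic one in both ranges of length. With the pairs in 4 equal bins by RARα p-value, from weakest to strongest, the median distance was 163, 136.5, 127 and 65 bp. In the strongest bin it was 99 bp at promoters, 77 bp in introns and 41 bp between genes. No such order was seen with 4 bins by BATF fold, where the medians were 131, 86, 135 and 115 bp from weakest to strongest.

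**Figure D3:**
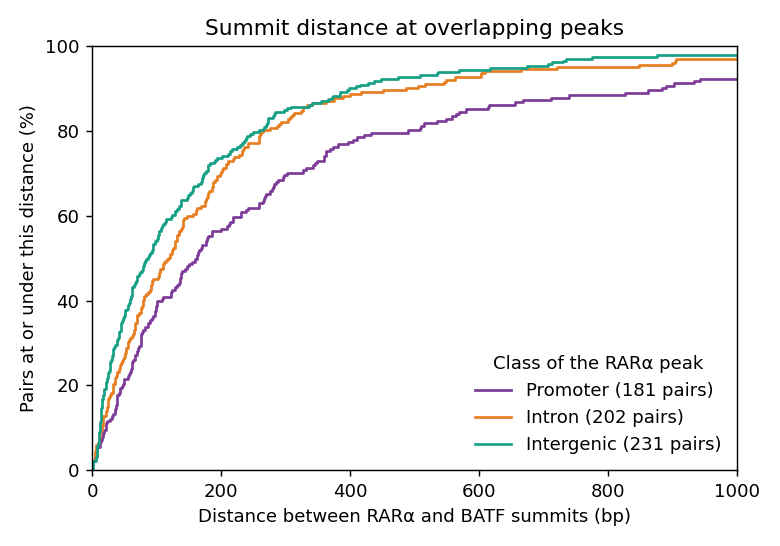
Cumulative share of pairs (%) against the distance between the RARα and the BATF summit (bp, axis ends at 1000), for overlapping pairs whose RARα peak is at a promoter, in an intron or between genes; the 12 exon pairs are not drawn. The intergenic curve rises first (median 87 bp), then the intron curve (119 bp) and the promoter curve (163 bp).

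BATF was the stronger of the pair at nearly all overlapping sites. The antibodies differ, so a fold of one factor against that of the other describes these lists and is no measure of occupancy. The median RARα fold in the 626 pairs was 3.35 and the median BATF fold 6.91. The log2 ratio of RARα to BATF fold had a median of −1.04 (quartiles −1.60 and −0.51) and ran from −4.55 to 1.77. RARα had the higher fold in 48 pairs (7.67%, 5.83 to 10.02). These were 27 of 231 intergenic pairs (11.7%, 8.16 to 16.5), 11 of 202 intron pairs (5.45%, 3.07 to 9.49), 9 of 181 promoter pairs (4.97%, 2.64 to 9.18) and 1 of 12 exon pairs. In the 48 pairs the median RARα fold was 6.33 and the median BATF fold 4.43, and their median summit distance was 62.5 bp against 122.5 bp in the other 578. When each fold was ranked within its own list, which takes out the lower scale of the RARα list, the RARα peak ranked higher in 251 pairs (40.1%, 36.3 to 44.0). The median rank was the 60.4th percentile of the RARα list and the 70.9th of the BATF list.

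Among the overlapping pairs, the strength of one factor told little of the strength of the other. Only sites called in both lists enter here, so RARα signals below its threshold are missing. Over all BATF peaks, the share with a RARα peak was 1.33% in the lowest and 9.11% in the highest decile of fold. Across the 626 pairs Spearman's rho between the folds was 0.05, and between the pileups 0.25. The recovered local IgG levels of a pair had a rho of 0.71, and they come from the same IgG library. These are correlations across sites of the same pools, which are not independent replicates.

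**Figure D4:**
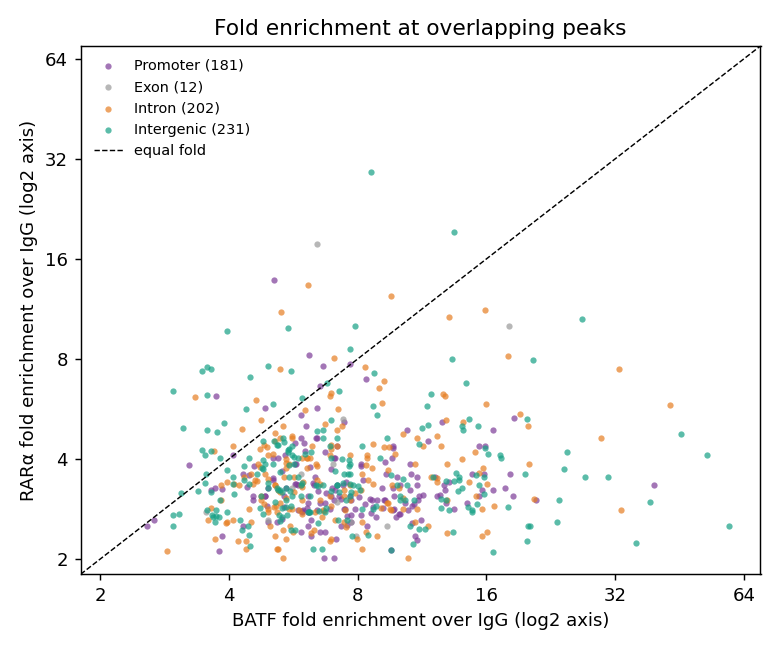
RARα fold enrichment over IgG against BATF fold enrichment over IgG at the 626 overlapping pairs, both on log2 axes, each point 1 pair coloured by the class of the RARα peak, with the dashed line at equal fold. Of the pairs, 48 lie above the line, and the cloud shows no slope (Spearman's rho 0.05).

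At the 5 pairs of highest RARα fold, the RARα fold was also above that of BATF, with summits less than 50 bp apart. The RARα peak of highest fold, at chr8:119423639-119424246 between genes and 1636 bp from Osgin1, had 131 fragments and a fold of 29.3. The BATF peak under it had a pileup of 38.5 (scaled in the BATF list to just under 1 per fragment) and a fold of 8.59, with its summit 18 bp away. At chr8:13213308-13214155, 4633 bp from Adprhl1, the folds were 19.2 for RARα and 13.4 for BATF and the summits 47 bp apart. In Lig1, which encodes the ligase of DNA replication, the RARα peak at chr7:13302406-13303309 had a fold of 17.8 against 6.42 for BATF at 9 bp. The authors' class for that RARα peak was exon, while the detailed annotation placed it in intron 19 of 28. At the promoter of Art2b, a cell-surface ADP-ribosyltransferase of T cells, the folds were 13.8 and 5.10 at 17 bp. In intron 1 of Ncoa3, a coactivator of nuclear receptors, they were 13.3 and 6.12 at 22 bp.

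The pairs at which BATF was strongest came next. There the RARα fold was far below the BATF fold, although at 4 of the 5 it was above the RARα median of 3.09. These pairs and those above were chosen by fold, so the direction within them follows from the choice. The highest was at chr17:48332647-48333004, 6136 bp from B430306N03Rik and near the Trem genes, which encode receptors of myeloid cells. BATF had a pileup of 352.54 and a fold of 58.9, and RARα had a pileup of 14 and a fold of 2.52, with summits 2 bp apart and the site annotated to an LTR repeat. Near Ifnar2, a subunit of the type I interferon receptor, the BATF fold was 52.4 and the RARα fold 4.12, again with summits 2 bp apart. Between genes 62748 bp from Tomm20, whose product imports proteins into mitochondria, the folds were 45.7 for BATF and 4.74 for RARα. In intron 3 of Nfkb1, which encodes the p50 subunit of NF-κB, they were 42.9 and 5.82 at 15 bp. At the promoter shared by Paics and Ppat, both genes of purine synthesis, they were 39.4 and 3.35 with both summits on the same base. Other pairs with low ratios were 11319 bp from AA467197, at 35.8 for BATF and 2.23 for RARα, and 13703 bp from Gtsf1l, at 38.5 and 2.97. At the first of them the IgG level was 12.9 against 2.88 genome-wide.

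One pair of high ratio had summits far apart. Between Ifnar1 and Ifngr2, which encode interferon receptor subunits, the RARα peak at chr16:91533087-91534413 had 39 fragments and a fold of 9.73. The BATF peak there had a pileup of 38.5 and a fold of 3.95, and the summits were 730 bp apart.

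The strongest RARα sites without BATF were mostly intergenic. The first, at chr6:89042557-89043426, had a fold of 16.5 with 63 fragments and lay 139794 bp from the nearest BATF peak and 130317 bp from Tpra1. The second, at chr9:123740751-123741293, had a fold of 12.4 with 47 fragments. The annotation named Ccr9, the chemokine receptor that brings T cells to the small intestine, and Cxcr6, a receptor of tissue-resident T cells, among its genes, and the nearest BATF peak was 6382 bp away. The next were a peak 3006 bp from Tbc1d5 (fold 10.9, nearest BATF peak at 204304 bp), a peak 12880 bp from Sdr39u1 on an LTR repeat (fold 10.9, at 27331 bp) and a peak in an intron of Virma, which the annotation names 1110037F02Rik, on a SINE repeat (fold 9.40, at 5547 bp). Their IgG levels ran from 2.88 to 6.95, and at the Ccr9 and Tpra1 sites IgG was at its genome-wide level.

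BATF reached folds above 50 at sites with no RARα peak. The highest fold of all, 61.2 with a pileup of 243.91 at chr10:44821341-44822496, was 417509 bp from any RARα peak and 244720 bp from the nearest protein-coding gene, Prep. The others were in Gosr1, a Golgi SNARE gene (54.5), in intron 6 of Ikzf2, which encodes the factor Helios (53.7), 89067 bp from Egln3, an oxygen-sensing prolyl hydroxylase (53.1), and in intron 2 of Gnptab, an enzyme of lysosomal sorting (52.6). Their distances to the nearest RARα peak ran from 28837 bp at Ikzf2 to 1699608 bp at Gnptab.

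At the level of genes, most RARα genes were also BATF genes, in a BATF list that reached 48.6% of all protein-coding genes. The annotation assigns one or more genes to most peaks, some of them many kilobases away, and each symbol was counted once. The RARα peaks named 1771 genes and the BATF peaks 11910. Of these 1450 were in both, which is 81.9% of the RARα genes and 12.2% of the BATF genes, and 321 genes were in the RARα list only. With BATF cut to as many peaks as RARα, the shares were 22.6% and 22.3%. For promoter peaks alone 231 of 253 RARα genes also had a BATF promoter peak (91.3%), out of 9014 such BATF genes (2.56%). The reference holds 21887 protein-coding genes, so BATF promoter peaks are common. The share of all genes with one was not computed, and the 91.3% has no matching background. Sharing a gene did not always mean sharing a site, as 1047 of the 1450 shared genes (72.2%) had a RARα peak that overlapped a BATF peak. No gene was named for 11.2% of RARα peaks (9.52 to 13.2) and 1.60% of BATF peaks (1.42 to 1.81).

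RARα mostly had 1 peak per gene (85.8% of its genes, mean 1.19), while BATF often had several (1 peak at 51.5% of its genes, mean 2.18). Genes with more BATF peaks more often had a RARα peak too. The share was 5.46% (4.92 to 6.06) at genes with 1 BATF peak, 9.76% with 2, 19.7% with 3 or 4, 37.8% with 5 to 9 and 63.8% (55.5 to 71.3) with 10 or more. Both counts rest on the same assignment of distant peaks to genes.

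The gene with most RARα peaks was Ifngr1, which encodes the ligand-binding chain of the interferon-γ receptor, with 7 RARα and 11 BATF peaks. Of the 7, 5 overlapped a BATF peak. They were spread from 97097 bp outside the gene into an intron, with folds from 2.37 to 7.44. The highest, at chr10:19504540-19505157 and 86792 bp from the gene, exceeded its BATF partner (7.44 against 3.62), while the next peak along did not (3.39 against 7.41). Gimap6, Gimap7, Gimap1 and Gimap5, a cluster of GTPase genes that act in lymphocyte survival, each had 6 RARα peaks. These were the same 6 intergenic peaks, of which 4 overlapped BATF. Their RARα folds were 9.92, 2.72, 4.23, 6.42, 5.03 and 3.22 along the chromosome, and those of 9.92 and 4.23 exceeded the BATF fold at the site (5.50 and 3.64) while those of 2.72 and 6.42 did not (5.48 and 7.24).

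To see which parts of the CD8 T cell program each factor touched, 11 gene lists with 144 genes were examined. For reference, among all protein-coding genes 7.18% had a RARα peak assigned, 48.6% a BATF peak, 5.92% both and 4.24% a RARα peak that overlapped a BATF peak. No member of any list had RARα without BATF. With assignment limited to 10 kb from the gene, the shares over all genes were 3.31% for RARα and 41.5% for BATF.

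**Figure D5:**
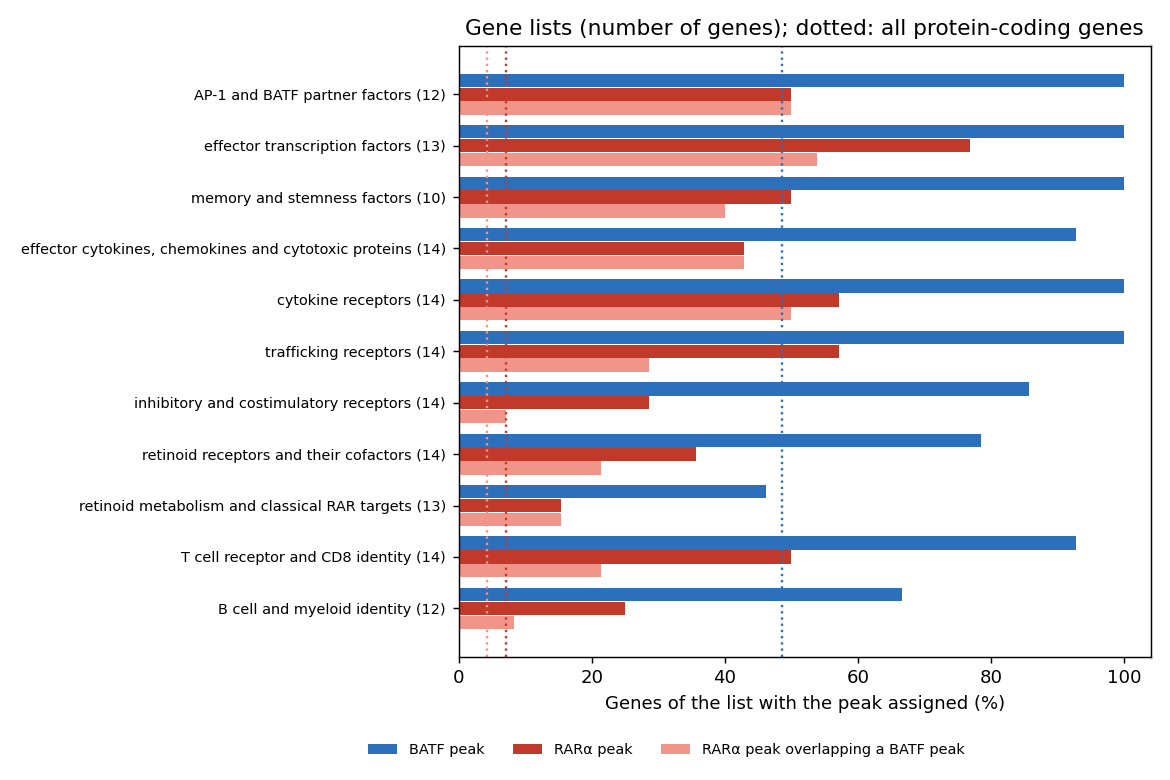
Share of the genes of each list (%) with a BATF peak, a RARα peak, or a RARα peak that overlaps a BATF peak assigned, with the number of genes in brackets and dotted lines at the share over all protein-coding genes (48.6%, 7.18% and 4.24%). BATF reaches all genes of 5 lists, and the RARα share runs from 15.4% of the retinoid metabolism list to 76.9% of the effector transcription factors.

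Among the AP-1 genes and partners of BATF, all 12 had BATF peaks and 6 had RARα peaks. At all 6 a RARα peak overlapped a BATF peak, although only 2 of the genes had a RARα peak within 10 kb. At Irf8, a partner of BATF at composite sites, RARα had 2 peaks and both overlapped. The stronger, at chr8:120715207-120715624 and 20734 bp from the gene, had folds of 5.78 for RARα and 8.70 for BATF with summits 18 bp apart. At Irf4 the RARα peak 46277 bp from the gene had a fold of 3.77 against 4.78 for BATF, with summits 54 bp apart. The single RARα peak at the Jund promoter was 12 bp from the BATF summit (2.80 against 5.93). Jun, Fos and Bach2, a repressor that competes for AP-1 sites, had RARα folds of 3.14, 3.02 and 3.22 at their overlapping peaks. The summits there were 272, 98 and 69 bp from those of BATF. Batf itself had 4 BATF peaks and 0 RARα peaks, and Batf3, Junb, Fosb, Fosl1 and Fosl2 likewise had BATF alone.

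The effector transcription factors had the largest RARα share of the 11 lists. All 13 had BATF peaks, 10 had RARα peaks, and at 7 a RARα peak overlapped BATF. At Runx3, a factor of CD8 identity and cytotoxicity, all 3 RARα peaks overlapped, the strongest with folds of 5.28 for RARα and 14.6 for BATF. At Zbtb32 the promoter peaks had folds of 4.38 and 15.9 at 67 bp. At Nr4a1, an early gene of T cell receptor signalling, the folds were 5.23 and 6.91 at 15 bp. Tbx21 (2.52 against 10.6), Eomes (3.27 against 4.94), Zeb2 (3.35 against 5.88) and Stat4 (3.68 against 5.34) were lower for RARα. At Stat4 the summits of that pair were 557 bp apart. Prdm1, the gene of BLIMP1, had 9 BATF peaks and 1 RARα peak, but that RARα peak was 22144 bp from the nearest of BATF. Bhlhe40 and Tox also had RARα peaks apart from BATF, and Id2, Nr4a2 and Nr4a3 had BATF alone.

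Memory and stemness factors split into 2 sets. All 10 had BATF peaks and 5 had RARα peaks. Klf2 and Lef1, which mark resting and long-lived cells, had 3 and 4 RARα peaks, of which 3 each overlapped BATF. The strongest at Klf2 had folds of 7.93 for RARα and 20.6 for BATF, and at Lef1 10.7 and 13.1 at 25 bp. Foxo1 and Id3 each had 1 overlapping RARα peak, with summits 932 and 341 bp apart, and the RARα peak at Bcl6 was 2150 bp from BATF. In contrast Ets1 had 25 BATF peaks, Ikzf1 16, Tcf7 15, Satb1 13 and Myb 9, with 0 RARα peaks at each of these genes. Many BATF peaks at a gene thus did not always come with a RARα peak.

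Of 14 genes for effector cytokines, chemokines and cytotoxic proteins, 13 had BATF peaks and 6 had RARα peaks, each with an overlap. Within 10 kb of the gene the counts were 8 for BATF and 3 for RARα. Ifng had folds of 5.05 for RARα and 11.7 for BATF at a site 21530 bp from the gene, with summits 26 bp apart. Gzma and Gzmk, neighbouring granzyme genes, share 1 RARα peak, with a RARα fold of 7.34 above the BATF fold of 5.60. At Fasl, which encodes the death ligand of cytotoxic cells, the folds were 4.19 and 5.50 at 25 bp. All 4 RARα peaks of Lif overlapped BATF, and at its promoter the folds were close, at 6.61 and 6.54. Ccl5 had a weak pair at 2.52 and 2.96. Tnf, with 8 BATF peaks, and Gzmb, with 6, had 0 RARα peaks. Il2 had neither factor.

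Cytokine receptor genes were rich in both factors, with BATF at 14 of 14 and RARα at 8, of which 7 had an overlap. Ifnar1 and Ifngr2 share the same RARα peak. Within 10 kb of the gene BATF was found at 13 and RARα at 5, beside 41.5% and 3.31% of all protein-coding genes. Il21r had 4 RARα peaks that all overlapped BATF, the strongest 91225 bp from the gene with folds of 10.1 and 7.90. At Il2rb, the shared β chain for IL-2 and IL-15, both RARα peaks overlapped, with promoter folds of 4.52 and 11.7. At Il2ra, the high-affinity chain for IL-2, the folds were 4.51 and 5.37. Il18r1 had 2 overlapping RARα peaks, the stronger with 3.35 against 7.39. The RARα peak in Il12rb2 (3.86) was 8457 bp from BATF. Il6st, with 13 BATF peaks, Il7r, with 6, and Il12rb1, with 5, had 0 RARα peaks.

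At trafficking and checkpoint receptors part of the RARα peaks stood apart from BATF. Of 14 trafficking genes 14 had BATF and 8 RARα, and 4 had an overlap. S1pr1, which lets T cells leave lymph nodes, had a weak RARα peak in a tall BATF peak (3.02 against 23.6), with summits 282 bp apart. Ccr7, a lymph node homing receptor, had 2 RARα peaks that both overlapped BATF. The stronger had a RARα fold of 3.11, with its summit 1176 bp from that of BATF. Itgb7, a chain of the gut-homing integrin, had 3.02 against 5.93 with summits 10 bp apart. Ccr9, Cxcr6 and Itgal had RARα peaks that did not overlap BATF. Of 14 inhibitory and costimulatory receptor genes 12 had BATF and 4 RARα. Cd244a alone had an overlap, with summits 1340 bp apart. None of these 14 had a RARα peak within 10 kb, which with 14 genes cannot be told from the 3.31% of all protein-coding genes. The peak named for Tnfrsf4 and Tnfrsf18 was the same one. Ctla4 and Icos, with 8 BATF peaks each, and Tigit, with 6, had 0 RARα peaks, and Lag3 and Havcr2 had neither factor.

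Retinoid genes included the list with the lowest share of either factor among the 11, that of metabolism and classical targets. Of 14 genes for retinoid receptors and their cofactors, 11 had BATF peaks and 5 RARα peaks. Rara itself had 12 BATF peaks and 1 intronic RARα peak, with folds of 3.19 for RARα and 5.68 for BATF and summits 333 bp apart. The RARα peaks at the cofactor genes Nrip1 and Ep300 were 128678 bp and 9329 bp from BATF. Ncoa2 had a BATF peak with a fold of 34.3 and 0 RARα peaks. Of 13 genes of retinoid metabolism and classical RAR targets, 6 had BATF peaks (46.2%), near the 48.6% of all genes, and 2 had RARα peaks. These were Asb2 (11.2 for RARα and 15.9 for BATF at 36 bp) and Gfi1 (5.32 and 18.5 at 76 bp). The paper reports RARα binding at both genes from these same data. The 2 hits are therefore no separate evidence on classical targets, and every other member of the list had 0 RARα peaks. Neither factor had a peak at Cyp26a1, Crabp2, Stra6, Dhrs3 or Aldh1a2.

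Genes of the T cell receptor and CD8 identity had BATF peaks at 13 of 14 and RARα peaks at 7, with an overlap at 3. Zap70, the kinase that binds the activated receptor, had promoter folds of 4.02 for RARα and 9.63 for BATF, and Cd5, an inhibitor of receptor signalling, had 4.04 and 7.08. Cd3d had 2.52 and 9.38 with summits 19 bp apart. The RARα peak between Cd8a and Cd8b1 had a fold of only 2.39 and was 3600 bp from BATF. Of 12 B cell and myeloid genes 8 had BATF peaks and 3 had RARα peaks. A RARα peak within 10 kb was found at 0 of them, beside 3.31% of all protein-coding genes. With 12 genes a count of 0 cannot be told from that share. The RARα peak named for Ms4a1 was 89683 bp from the gene. With 10 to 14 genes a list, and neighbouring genes that share peaks, small differences between the lists cannot be read from these counts.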

How the data were processed

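ChIP-seq was read from the annotated peak lists of RARα and BATF in control cells; the RA lists served only for the total of peaks. The authors aligned reads with Bowtie2 to mm10, called peaks with MACS 2.2.7.1 on pooled files against 1 IgG library and annotated them with HOMER. The deposited pileup is a signal, the fragments at the summit (BATF values are in steps of 0.9875 per fragment). Fold enrichment, as deposited, is a ratio over IgG. The authors' p-values and q-values are on the −log10 scale. Peak numbers have gaps, the reason for which is not stated.

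Overlaps, summit distances, fold ratios and Wilson 95% intervals were computed in Python 3.11.15 (numpy 2.4.6, pandas 2.3.3) and the overlap step was tested on simulated data. Of 12231 gene symbols, 12175 (99.5%) matched the RefSeq table of GRCm38.p6, which mm10 corresponds to. Members and gene lists were chosen with earlier results of these data known. The genes named are those at the 5 overlapping pairs of highest RARα fold, highest BATF fold, highest ratio and lowest ratio, at the 5 strongest peaks of each factor without the other, the 5 genes with most RARα peaks, and list members whose RARα peak overlaps BATF; list members without an overlap were named after their values were seen, and some list members are counted but not reported here by name. A planned motif search of promoters was not run, as no sequence was used here. Alternatives changed the p-value, q-value or fold threshold, list length, overlap, gene distance, pairing and measure of strength.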

Additional observations from a re-analysis of the deposited data

Results flagged for a closer look

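Peaks on unplaced scaffolds stood outside the comparison of chromosomes. There were 12 of them in the RARα list, with folds from 1.14 to 4.64, and 2 in the BATF list, with folds from 1.64 to 6.56. They were picked out because they are signal above IgG in sequence that the comparison did not use.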

How the results depend on the processing

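Of 58 values under other settings, 18 stayed within the counting interval of the value reported and 40 moved out of it. A change of direction was looked for only in the median log2 ratio, which stayed negative in each setting. Some of the 18 could not move, such as the promoter share of a list that the setting left uncut. The 4 settings on summits, IgG level and repeats were chosen after seeing the data. The share of RARα peaks that overlap BATF and of BATF peaks that overlap RARα was 71.1% and 2.29% with RARα p-values of at most 1e-05, 72.4% and 1.84% at q-values of at most 0.05, 60.7% and 0.736% at folds of at least 5, 62.6% and 7.16% within 5 kb, 9.14% and 8.71% with lists of equal length, 25.4% and 1.87% for summits within 100 bp and 30.3% and 0.835% for RARα peaks at the genome-wide IgG level. An overlap of 50% of the shorter peak gave 50.7% of RARα peaks, and merging within 1 kb gave 4.49% of BATF peaks. Shorter lists, wider limits and fewer sites tested give these changes by construction, except for the RARα share at stricter thresholds and at the genome-wide IgG level, where the cause was not tested. The promoter share of RARα was 15.8% at q of at most 0.05, 13.4% at folds of at least 5, 15.9% at the genome-wide IgG level and 23.1% without repeats. That of BATF was 60.6% at folds of at least 5, 51.2% in the list of equal length, 50.8% at the genome-wide IgG level and 62.0% without repeats, so BATF stayed above RARα in each. Genes in both lists were 92.0% of RARα and 7.38% of BATF genes with RARα p-values of at most 1e-05, 84.0% and 2.49% at folds of at least 5, 22.6% and 22.3% with lists of equal length, 79.3% and 8.01% by the first gene named, and 6.47% of BATF genes within 10 kb. The median summit distance was 89.5 bp with RARα p-values of at most 1e-05, 37 bp at folds of at least 5 and 145.5 bp between midpoints. The median log2 ratio was −0.73 and RARα was higher in 13.3% of pairs with RARα p-values of at most 1e-05, the ratio was −1.14 by pileup scaled to depth, and RARα was higher in 40.1% by rank. The cause of these was not tested. No paired analysis was possible because each factor has 1 pooled list and no replicate numbers. Taking all classes in place of the first gave no other value, since each peak has 1 class. RARα summits held a median of 13 fragments, so differences among single weak RARα peaks are limited by counting error.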
